A study of Mus musculus with 8 samples.

Results

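The stretch of mouse chromosome 7 from 14.9 to 16.5 Mb (GRCm38) holds the Obox gene cluster, Crx and their neighbours up to Zc3h4. It was described here through the contacts of its acetylated sites in embryonic stem cells. All loops with at least 1 anchor in the stretch were taken, which gave 402 of the 415681 loops of the series and 25 of its 30044 anchors. An anchor is a run of touching 5-kb bins, and a loop is a pair of anchors joined by read pairs. The 6 genes of interest were Obox6, Crx, Obox1, Obox2, Obox3 and Obox5. The anchor at Obox6 and the end of Crx, chr7:15830001-15870000, was selected on its difference between alleles of a chromosome 13 interval in these same libraries, and it is shown apart. Its 41 loops were therefore described without a test, and of the other 361 loops the 55 with enough counts were tested.

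The assay was HiChIP with an antibody against histone H3 acetylated at lysine 27, a mark of active promoters and enhancers. Read pairs join sites that lay close in the nucleus, at least 1 of which carried the mark. B6 is a stem cell line of strain C57BL/6J, and D2 is a line of DBA/2J. B6-13D2, from the congenic strain B6.D2-(rs30079041-rs51756099)/Bakr, has the B6 genome with a D2 interval on chromosome 13. D2-13B6, from D2.B6-(rs29224292-rs13469455)/Bakr, has the D2 genome with the B6 interval, and the labels give 2 different markers for one end of it. Library totals ran from 737955 to 1425304 counts. Every line was grown in medium with serum, LIF and the inhibitors PD0325901 and CHIR99021. Each of the 4 lines is 1 cell line with 2 technical libraries, so every test below sets these lines against the spread between libraries and says nothing of other lines of the same strain. Below, the interval effect is the D2 allele minus the B6 allele, and the background effect is D2 minus B6. The 4 libraries with a B6 interval are those of B6 and D2-13B6.

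The Obox genes encode homeodomain transcription factors of the oocyte and early embryo, and are known for their part in switching on the embryonic genome after fertilization. Crx is the cone-rod homeobox gene, which drives photoreceptor genes in the retina. Crxos lies beside Crx on the opposite strand, and its product also carries homeodomains. H3K27ac contacts report acetylated sites and their partners, not transcripts.

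The RefSeq promoter windows (GRCm38.p6, each of 300 bases ending 50 bases past the gene's start) show how alike the members of the cluster are and where the Crx start lies. Of the 6 genes, 5 had such a window, and Obox6 is named only. Letters GGATTA, or TAATCC on the other strand, the core that Crx and related homeodomains recognise, were searched on both strands and are in capitals. The Crx window, on the minus strand at chr7:15879906-15880205, held GGATTA at 2 places, and the Crxos window, on the plus strand at chr7:15882367-15882666, at 0. The Obox1 window (plus, chr7:15547007-15547306) and the Obox5 window (plus, chr7:15750120-15750419) are shown for their likeness. Obox1 has 6 annotated starts in GENCODE, and this window lies far past the first of them (15388948).
Crx: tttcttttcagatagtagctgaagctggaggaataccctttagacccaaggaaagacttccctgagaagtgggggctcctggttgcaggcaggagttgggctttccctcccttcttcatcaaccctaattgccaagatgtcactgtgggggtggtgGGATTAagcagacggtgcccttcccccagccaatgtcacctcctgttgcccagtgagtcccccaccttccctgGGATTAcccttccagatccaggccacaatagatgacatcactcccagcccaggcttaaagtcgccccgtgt
Crxos: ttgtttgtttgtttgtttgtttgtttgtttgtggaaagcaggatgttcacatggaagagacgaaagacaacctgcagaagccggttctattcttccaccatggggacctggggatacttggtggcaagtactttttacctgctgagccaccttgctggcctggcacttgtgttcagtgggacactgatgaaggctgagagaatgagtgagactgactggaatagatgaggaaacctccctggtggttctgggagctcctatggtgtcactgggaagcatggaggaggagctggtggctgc
Obox1: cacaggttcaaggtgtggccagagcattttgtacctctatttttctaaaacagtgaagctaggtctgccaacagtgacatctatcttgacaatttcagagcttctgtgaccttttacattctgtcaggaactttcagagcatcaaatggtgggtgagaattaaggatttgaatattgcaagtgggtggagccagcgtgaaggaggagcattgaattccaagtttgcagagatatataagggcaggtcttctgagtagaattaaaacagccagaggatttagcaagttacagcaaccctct
Obox5: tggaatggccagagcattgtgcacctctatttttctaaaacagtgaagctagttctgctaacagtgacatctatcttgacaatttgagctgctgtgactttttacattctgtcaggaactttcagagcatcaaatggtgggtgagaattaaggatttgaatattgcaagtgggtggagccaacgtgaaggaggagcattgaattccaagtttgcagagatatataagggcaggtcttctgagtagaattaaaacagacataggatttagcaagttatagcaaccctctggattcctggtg
Over 283 aligned bases, the Obox1 and Obox5 windows were 96.5% identical, and Obox1 and Obox2 were 100% identical over 203 aligned bases. The Obox3 window held GGATTA at 1 place and was 93.3% identical to Obox1 over 164 bases. Of 32851 such windows in the table, 7.06% held the letters on either strand. A match is a description of the letters, not of a bound site. Of the 300 bases of the Crx window, 205 lay inside the anchor that holds the start of Crxos.

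Obox1, Obox2, Obox3 and Obox5 had almost no listed contacts. In GENCODE M21, 39 genes of the stretch have names that start with Obox, of which 5 are protein-coding and 33 are annotated pseudogenes. No start of Obox1, Obox2, Obox3 or Obox5 lay in an anchor. The nearest anchor lay 15131 bp from the Obox5 start (15750131), 90099 bp from the Obox3 start (15639902), 71053 bp from the first Obox1 start (15388948) and 71280 bp from that of Obox2 (15388721). Before the Obox6 anchor, only 6 of the 186 bins of 5 kb were listed, each an anchor of its own. They held 1 to 5 counts over all 8 libraries together, 13 in all, and none was tested. The anchor with the most, chr7:15270001-15275000, had 5 counts from 4 libraries. One of them, chr7:15460001-15465000, lay in the body of Obox1 with a single count.

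These bins are also those in which reads can least be placed. Of all 150-base words of the bins before the Obox6 anchor, 60.9% occurred once in the GRCm38 assembly, and between the starts of Obox2 and Obox3 the share was 49.8%. In the bin with the first starts of Obox1 and Obox2 it was 0%. Bins past the Crxos anchor had 99.8%, and 35 of those 118 bins were listed. Low uniqueness did not go with every unlisted bin: before the Obox6 anchor, 43 bins had over 90% unique words, and 0 of them were listed. The bin of the Obox5 start had 98.2%. How the authors placed reads with several matches is not given in the sources used here, and the part of placement in the missing contacts was not tested. The plot of unique words shows this along the stretch.

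**Figure D1:**
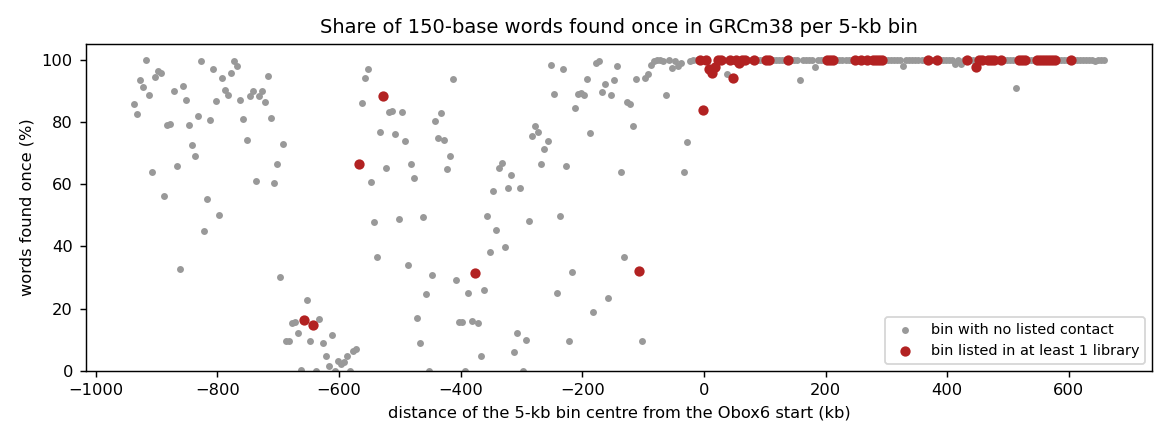
Each point is a 5-kb bin, placed by the distance of its centre from the Obox6 start in kb. The vertical axis is the percentage of 150-base words that occur once in GRCm38. Red bins were listed in at least 1 library. Left of Obox6, 6 of 186 bins were listed.

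The anchor at Obox6 and Crx carried 1481 counts. It holds the whole Obox6 gene (15833241 to 15839678, minus strand) and the end of the Crx gene body (15865947 to 15879968, minus strand). The data go against the second name in part, because the first Crx start (15879968) lay 9968 bp past this anchor. That start lay in a stretch of 2 bins without a listed contact, 33 bp short of the Crxos anchor, and shorter annotated Crx transcripts start 1402 and 2388 bp past the Obox6 anchor. The anchor had 96.7% unique words, 83.6% in the bin of the Obox6 start.

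Its summed contacts were 233 and 233 CPM in the B6 libraries, where CPM are counts per 1000000 counts of the library. They were 140.7 and 139.3 CPM in D2, 50.9 and 47.9 in B6-13D2, and 271 and 260 in D2-13B6. The order of the lines was thus D2-13B6, B6, D2 and B6-13D2, and no library of one line overlapped those of the next. Every library with the B6 interval lay above every library with the D2 interval. The interval effect was -2.13 on the log2 scale in the B6 background and -1.07 in the D2 background, with an average of -1.60. These values chose the anchor and are given as a description.

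The background effect at this anchor was 0.85 (SE 0.11). It rests on the same library values that chose the anchor, so it too is a description with no test. The effect is an average over both intervals, and its parts were unequal. With the D2 interval, D2 lay far above B6-13D2 (140 ± 0.997 against 49.4 ± 2.13 CPM, mean ± SD, n = 2 libraries each). With the B6 interval, D2-13B6 and B6 differed less (265 ± 8.04 against 233 ± 0.0756, n = 2 each).

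**Figure D2:**
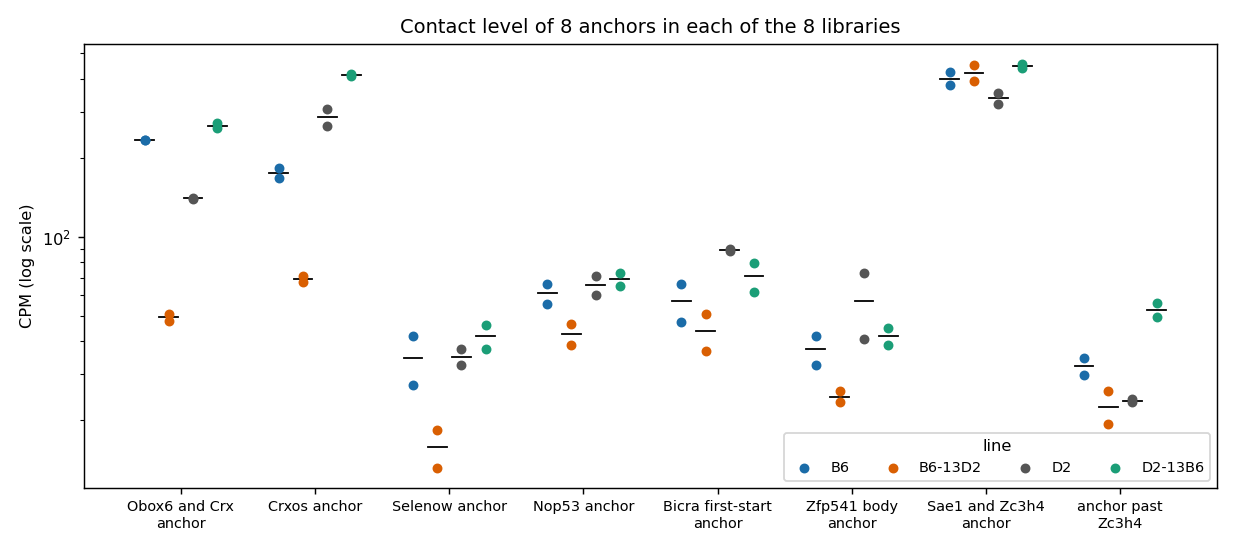
Summed contacts of 8 anchors of the stretch in CPM, on a log scale. Points are libraries, coloured by line, and bars are means of 2 libraries. In the Obox6 and Crx anchor, the libraries of B6-13D2 lie at 47.9 and 50.9, and in the Sae1 and Zc3h4 anchor the D2 libraries are lowest.

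The contacts of the Obox6 anchor fell into 3 classes of unlike size. Contacts inside the anchor had 108 and 96.2 CPM in B6, 49.3 and 58.6 in D2, 17.3 and 15.5 in B6-13D2 and 92.5 and 90.5 in D2-13B6. The loop to the Crxos anchor had 67.2 and 69.1 CPM in B6, 67.4 and 54.7 in D2, 21.4 and 20.6 in B6-13D2, and 125 and 126 in D2-13B6. The other 39 partners together had 57.8 and 67.8 CPM in B6, 24.1 and 26.0 in D2, 12.2 and 11.8 in B6-13D2, and 53.8 and 43.5 in D2-13B6. In all 3 classes B6-13D2 was lowest. The classes differed in the place of D2-13B6, which was above B6 in the loop to Crxos and below B6 in the other classes. The background effect was 0.80 inside the anchor (SE 0.17) and 1.23 in the loop to Crxos (SE 0.16), again as a description.

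**Figure D3:**
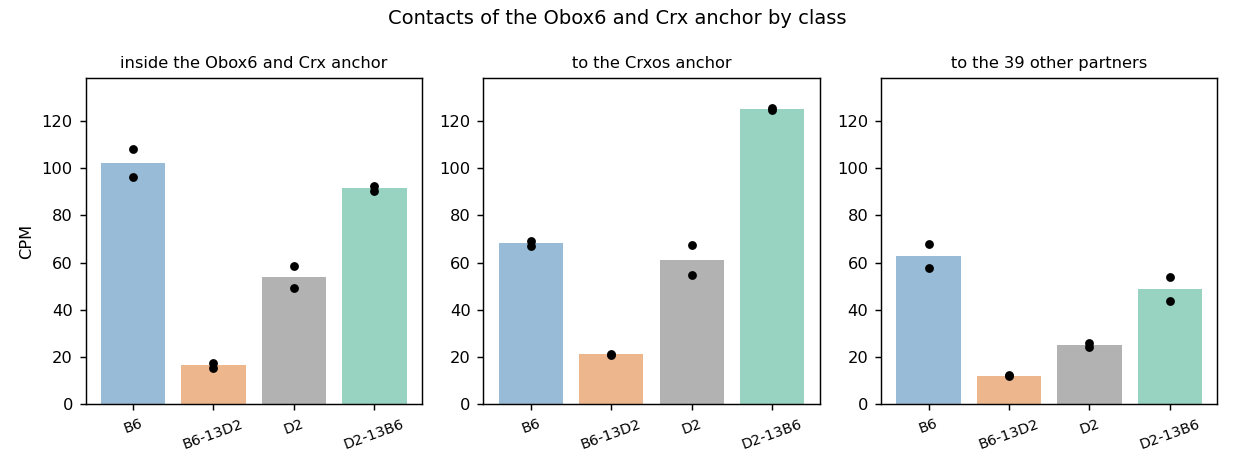
Contacts of the Obox6 and Crx anchor in 3 classes, in CPM. Bars are means of 2 libraries and points are libraries. B6-13D2 is lowest in each class, and the loop to the Crxos anchor is highest in D2-13B6 at 125 and 126.

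The loops to other partners were thin, and 12 of the 39 had a single count. Among the 8 partners with the most counts, the anchor itself had 556 and the Crxos anchor 615. The anchor of the Nop53 start (chr7:15940001-15950000; Nop53 acts in ribosome assembly) had 57 counts, with 8 and 4 in B6, 5 and 2 in D2, 4 and 4 in B6-13D2, and 19 and 11 in D2-13B6. The anchor of the Selenow start (chr7:15920001-15925000; selenoprotein W) had 52, with 6 and 8 in B6, 3 and 2 in D2, 1 and 7 in B6-13D2, and 14 and 11 in D2-13B6. D2-13B6, the deepest line, has the highest raw counts, and in CPM it overlaps B6 at both partners. At Selenow, B6 (6.30 and 10.8 CPM) lay above D2 (3.61 and 2.60). The anchor of Sae1 and Zc3h4 starts had 21, the anchor of the first Bicra start 20, the anchor of Kptn and Slc8a2 starts 19, and an inner Bicra start 13. Of the 41 loops of the Obox6 anchor, 6 reached the minimum count. The 10 partners that lie before it had 4 and 4 counts in B6, 3 and 5 in D2, 2 and 0 in B6-13D2, and 1 and 8 in D2-13B6, too few to order the lines.

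Inside the anchor, the 21 pairs of bins behind the loop followed no single spot. The pair that joins the bin of the Obox6 start (15835001) with the bin 10 kb away (15845001) had 27 counts in B6, 30 in D2-13B6, 6 in D2 and 2 in B6-13D2. The pair at the Crx end (15855001 to 15865001) had 10 counts in B6, 32 in D2-13B6, 12 in D2 and 5 in B6-13D2. By bin, the interval effect was between -1.42 and -2.14 in the 7 bins up to the 15860001 bin, and -0.93 in the last bin, which holds the end of Crx. The background effect of the same 8 bins ran from 0.62 to 1.03. As for the anchor, these values are a description.

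The Crxos anchor, chr7:15880001-15910000, had the clearest background effect in the stretch. Its sums were 167 and 183 CPM in B6, 263 and 307 in D2, 67.2 and 70.7 in B6-13D2, and 417 and 408 in D2-13B6. No library of a D2 background overlapped one of a B6 background. The background effect was 1.64 (SE 0.10, FDR 1.46e-26). This FDR came from edgeR's quasi-likelihood test with Benjamini-Hochberg adjustment over 21211 anchors, as did those of all anchors here, with an FDR under 0.05 as the threshold for a call. The interval effect was -0.95 (SE 0.10, FDR 1.58e-11), with -1.22 in the B6 background (SE 0.16, FDR 7.46e-08) and -0.68 in the D2 background (SE 0.12, FDR 2.25e-05). The difference between the backgrounds was 0.53 (SE 0.20), with an FDR of 0.12. Since part of these sums is the loop to the Obox6 anchor, they were also made without it, an alternative chosen after seeing the data. The interval effect was then -0.76 (SE 0.12, FDR 1.42e-06) and the background effect 1.83 (SE 0.11, FDR 2.02e-26). The interval effect was then -1.02 in the B6 background (SE 0.19, FDR 1.88e-04) and -0.51 in the D2 background (SE 0.13, FDR 0.00542).

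Contacts inside the Crxos anchor, which share no read pair with the Obox6 anchor, had 52.5 and 69.1 CPM in B6, 130 and 177 in D2, 26.5 and 32.4 in B6-13D2, and 216 and 202 in D2-13B6. By edgeR's test over 44706 loops, their background effect was 2.10 (SE 0.13, FDR 1.22e-51), and their interval effect was -0.74 (SE 0.14, FDR 1.86e-04). In the B6 background alone the interval effect was -0.97 (SE 0.24, FDR 0.0166), a call that was lost without the second B6 library or without either B6-13D2 library (FDR up to 0.283). Without the filter on low counts, which brings many more loops into the fit and the adjustment, neither interval call was kept (FDR 0.959 averaged and 0.784 in the B6 background), while the background call was. The cause of that loss was not tested. By bin, the background effect rose along the anchor, from 1.25 and 1.07 in the bins at 15880001 and 15885001 to 2.20 and 2.22 in those at 15900001 and 15905001. The interval effect of those 6 bins stayed between -0.69 and -0.97. Unlike the contacts inside the Crxos anchor, these bin sums include pairs with the Obox6 anchor, whose values chose it.

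Both anchors together gave a measure that the scaling of libraries does not enter, the ratio of counts inside the Obox6 anchor to counts inside the Crxos anchor. It was 2.06 and 1.39 in the B6 libraries, with exact (Clopper-Pearson) 95% intervals of 1.46 to 2.95 and 0.958 to 2.04 that cover counting error only. In B6-13D2 it was 0.654 and 0.477, in D2 0.380 and 0.331, and in D2-13B6 0.427 and 0.448. The B6-13D2 libraries had intervals of 0.333 to 1.25 and 0.270 to 0.820, of which the first overlaps that of the second B6 library. This ratio uses the counts that chose the Obox6 anchor, so it has no test.

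**Figure D4:**
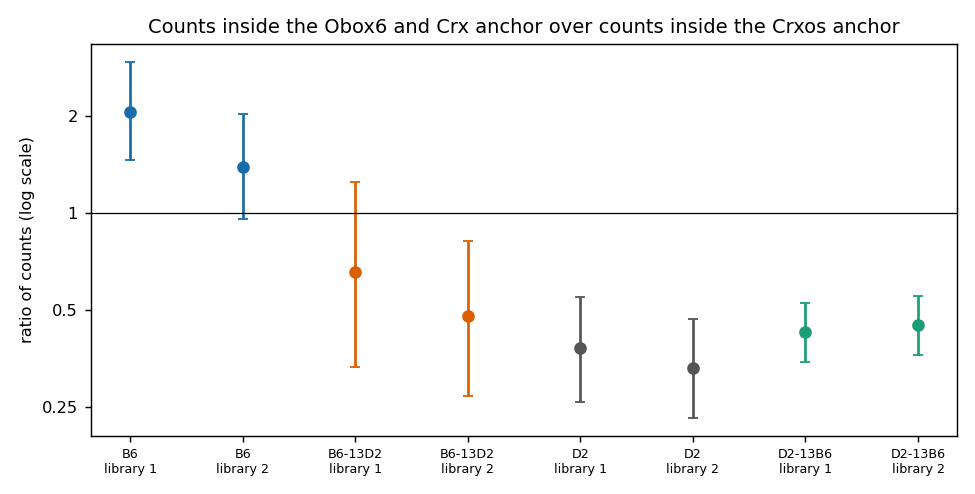
Ratio of counts inside the Obox6 and Crx anchor to counts inside the Crxos anchor, on a log scale, for each library. Points are ratios and bars are exact 95% intervals that cover counting error only. The B6 libraries lie at 1.39 and 2.06 and the other 6 between 0.331 and 0.654.

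Few anchors outside the Obox6 anchor were called. Of the 24 anchors other than the Obox6 anchor, 18 were tested. The background effect was called in 5 of the 18 and was higher in D2 in each, while 24.8% of all anchors tested were called for it. The share is close to that background, and the direction over all anchors was 2525 higher and 2728 lower. The sums of these 5 also hold loops to the Obox6 anchor. Without those loops the Nop53 call was lost (FDR 0.0628) and the others were kept. The averaged interval effect was called in 3 of 18, all lower with the D2 allele, where the background is 6.16% of anchors. The sums of these anchors hold loops to the Obox6 anchor, which was chosen on this effect, with only 2 such counts at the anchor past Zc3h4. Without those loops 2 anchors were called, Crxos and the anchor past Zc3h4, and Selenow was not. The interval effect in the B6 background was called in 1 of 18 (background 5.27%), that in the D2 background in 3 (background 5.73%), and the difference between them in 1 (background 4.83%). Over all anchors, 308 were called higher and 908 lower in the D2 background, and 222 higher and 803 lower for the difference. The median averaged interval effect of the 18 was -0.15, against 0.01 over all anchors, and the median background effect 0.16 against 0.01. With DESeq2, which gave an adjusted p to 10 of the 18 for the averaged interval effect and to all 18 for the background effect, 1 and 2 anchors were called. Without the second D2 library, 3 were called for the background effect, and without the first B6 library 2 were called for the interval effect in the B6 background. Of the 26 protein-coding genes with a start in the stretch, 14 had a start in an anchor.

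The Selenow anchor had 27.3 and 42.0 CPM in B6, 37.3 and 32.5 in D2, 13.2 and 18.4 in B6-13D2, and 37.3 and 46.3 in D2-13B6. B6-13D2 was lowest, and the other lines overlapped. Its background effect was 0.71 (SE 0.20, FDR 0.0044), a call lost with DESeq2 (FDR 0.0968). Its interval effect was -0.67 (SE 0.20, FDR 0.0262), and it was -0.53 with an FDR of 0.14 once loops to the Obox6 anchor were left out. Adjusted p values over its alternatives ran from 0.0152 to 0.156, and the call was also lost with a scaling factor per chromosome, and without the second B6 library, either D2 library, the first B6-13D2 library or the second D2-13B6 library.

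The Nop53 anchor had a background effect of 0.39 (SE 0.14, FDR 0.0371). This call was lost under 9 of 17 alternatives, with an FDR of 0.0224 to 0.249. Among these was that without loops to the Obox6 anchor (0.37, SE 0.15, FDR 0.0628). The anchor of the first Bicra start (chr7:16040001-16055000; Bicra is a subunit of a chromatin remodelling complex) had 47.3 and 66.4 CPM in B6, 90.2 and 88.5 in D2, 50.9 and 36.8 in B6-13D2, and 79.6 and 61.7 in D2-13B6. Libraries of the backgrounds overlapped. Its background effect was 0.70 (SE 0.14, FDR 6.29e-05) and passed under all 17 alternatives. An anchor in the body of Zfp541, a zinc finger gene of male meiosis (chr7:16085001-16090000), had an effect of 0.69 (SE 0.18, FDR 0.00192), lost with DESeq2 and without the second D2 library (FDR up to 0.125). That library was high, at 72.9 CPM against 40.9 in the other D2 library.

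The loops were tested at less depth. Of the 361 loops without an end in the Obox6 anchor, 55 were tested. The background effect was called in 5, all higher in D2 (background 8.85% of loops), and the averaged interval effect in 1, the contacts inside the Crxos anchor (background 0.986%). The interval effect was called in 1 in the B6 background (background 0.859%) and in 2 in the D2 background (background 0.922%): again the contacts inside Crxos for B6, and for D2 the contacts inside the Sae1 and Zc3h4 anchor (-0.62, FDR 0.00542) and its loop to the anchor past Zc3h4 (-1.29, FDR 0.0191). Besides the contacts inside Crxos, the background calls were the loops from Crxos to Selenow (2.05, SE 0.36, FDR 1.54e-06) and to the first Bicra start (1.70, SE 0.49, FDR 0.00954), contacts inside that Bicra anchor (1.68, SE 0.49, FDR 0.0115), and its loop to Napa (1.89, SE 0.65, FDR 0.0415). These were thin. The loop from Crxos to Selenow had 7 and 6 counts in B6, 12 and 14 in D2, 3 and 2 in B6-13D2, and 22 and 28 in D2-13B6. The loop from Crxos to Bicra had 5 and 3 in B6, 7 and 7 in D2, 2 and 1 in B6-13D2, and 12 and 10 in D2-13B6. Of these 5 calls, those of the first Bicra start with Crxos, with itself and with Napa were also lost singly: the first without the second B6-13D2 library (FDR 0.105), the next without the second D2, the first B6-13D2 or the second D2-13B6 library (FDR up to 0.131), and the Napa loop under 6 of 13 alternatives (FDR up to 0.812). Without the filter on low counts only the contacts inside Crxos were called. With DESeq2, 2 loops were called for the background effect, of 24 with an adjusted p, and 1 for the interval effect in the D2 background, of 2 with one. The count of 5 loops was 8 without the first D2 library and 3 without the second D2, the first B6-13D2 or the second D2-13B6 library. The call in the B6 background was lost without the second B6 or either B6-13D2 library, and both calls in the D2 background without the first D2 or either D2-13B6 library.

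At the far end of the stretch, the interval effect differed between backgrounds. The anchor of the Sae1 and Zc3h4 starts (chr7:16385001-16420000; Sae1 is part of the SUMO-activating enzyme) had 377 and 423 CPM in B6, 392 and 450 in B6-13D2, 354 and 320 in D2, and 454 and 440 in D2-13B6. D2 was below D2-13B6, and B6-13D2 overlapped B6. The interval effect was -0.55 in the D2 background (SE 0.12, FDR 6.59e-04) and 0.20 in the B6 background (SE 0.12, FDR 0.35), and their difference was -0.76 (SE 0.17, FDR 0.00157). Fold changes use other scaling factors than the CPM, so both differ in size here. Over 17 alternatives the difference ran from -0.84 to -0.48, and it was not called without contacts inside anchors (-0.48, FDR 0.171). The effect in the D2 background was lost without the second D2 library (FDR 0.0635). An anchor past the end of Zc3h4 (chr7:16440001-16445000), with no annotated start in 5 kb, had 34.7 and 29.8 CPM in B6, 19.3 and 25.8 in B6-13D2, 24.1 and 23.4 in D2, and 49.5 and 56.1 in D2-13B6. Its averaged interval effect was -0.84 (SE 0.20, FDR 0.00274), with -1.30 in the D2 background (SE 0.26, FDR 2.37e-04) and -0.38 in the B6 background (SE 0.29, FDR 0.508), where it was not called. The difference between the backgrounds was not called either (-0.92, SE 0.39, FDR 0.188). Nearer to Crxos, the anchors of the starts of Dhx34, Ccdc9 and Bbc3, which encodes the cell death protein Puma, had no call in any contrast.

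The 5-kb bins placed the effects more finely. Outside the Obox6 anchor, 41 of 47 listed bins were tested. The averaged interval effect was called in 8, all lower with the D2 allele (background 4.58% of bins): the 6 bins of Crxos, the Selenow bin and the bin past Zc3h4. Without contacts to the Obox6 anchor, an alternative chosen after seeing the data, 5 bins were called. The background effect was called in 11 bins, all higher in D2 (background 23.9%). With DESeq2, which gave an adjusted p to 31 of the 41 bins for the interval, these counts were 4 and 7, and without the first B6 library the count for the interval was 5. Of the 33 tested bins between the Selenow bin and the bin past Zc3h4, 29 were called for neither averaged effect.

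Within single backgrounds, more bins of the far end were called. The interval effect in the D2 background was called in 8 bins, all lower with the D2 allele (background 5.18%): 4 of Crxos, those at 16385001, 16400001 and 16410001 in the Sae1 and Zc3h4 anchor, and the one past Zc3h4. Lower calls also prevailed over all bins in this contrast, with 1722 lower and 457 higher. In the B6 background the interval effect was called in 8 (background 3.49%), of which 7, in Crxos and Selenow, were lower and 1, at 16385001, was higher. The bin at 16385001, which holds the Sae1 start, had 65.1 and 81.3 CPM in B6, 108 and 113 in B6-13D2, 96.2 and 66.4 in D2, and 107 and 119 in D2-13B6. B6-13D2 lay above B6, and D2 lay below D2-13B6. Its interval effect was 0.67 in the B6 background (SE 0.18, FDR 0.0163) and -0.55 in the D2 background (SE 0.17, FDR 0.0379), and the difference was -1.22 (SE 0.25, FDR 4.35e-04). The difference passed under all 15 alternatives that gave an adjusted p, while the effect in the B6 background was lost without the first B6 or the second B6-13D2 library (FDR up to 0.262) and that in the D2 background under 8 of 16 alternatives (FDR up to 0.518). The difference was also called in 3 other bins (background 3.79%), at 16395001 and 16410001 and, in the Ccdc9 anchor, at 16295001, each of them lost under 7 or more of 15 alternatives. Over all bins the difference was called lower in 1290 and higher in 305. Without loops to the Obox6 anchor, 5 bins were called in the B6 background. In the D2 background 4 were called with library totals alone and 5 with a scaling factor per chromosome, and 1 was called for the difference with library totals alone. DESeq2 called 0 bins in each background and for the difference, with an unadjusted p under 0.05 in 11 (B6), 9 (D2) and 5 (difference), but it gave an adjusted p to only 1, 9 and 1 of the 41 bins. Leaving out any 1 library gave 2 to 9 calls in the D2 background, 2 to 7 in the B6 background and 1 to 3 for the difference. The fewest calls came without the first D2 or the second D2-13B6 library in the D2 background, and without the second B6 library in the B6 background.

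**Figure D5:**
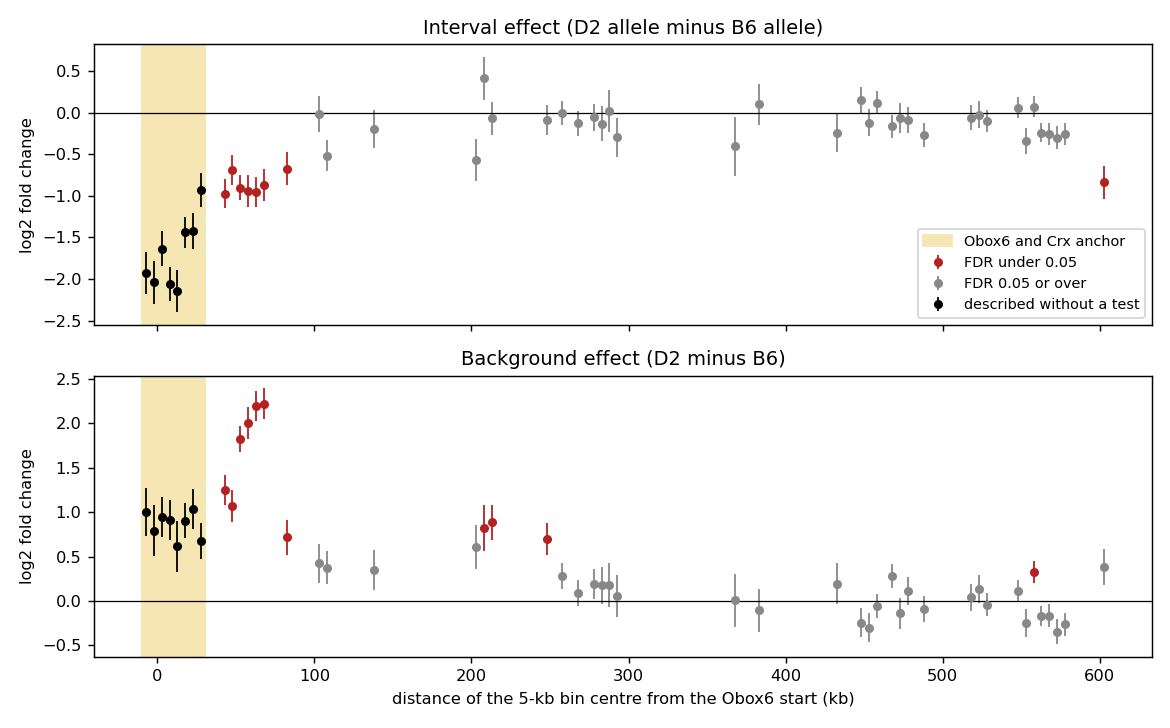
Log2 fold change of tested 5-kb bins by distance of the bin centre from the Obox6 start in kb. The upper panel is the averaged interval effect and the lower panel the averaged background effect. Bars are standard errors, and red marks an FDR under 0.05 by edgeR's test over all bins. Black bins inside the shaded anchor, whose counts chose it, are a description with no test. The background effect is highest in Crxos, up to 2.22.

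As a share of the library, the loops of the stretch without the Obox6 anchor held 9.26 and 9.92 of 10000 counts in B6, 10.5 and 10.6 in D2, 8.46 and 9.42 in B6-13D2, and 12.3 and 11.7 in D2-13B6. All 4 libraries of a D2 background lay above all 4 of a B6 background. The difference of means was 2.00 per 10000 counts (11.3 ± 0.879 against 9.27 ± 0.606, n = 4 libraries each). The exact two-sided permutation p over libraries was 0.0286, the smallest that 4 against 4 allows, and 0.0571 after adjustment over both factors, so this test could not pass 0.05. Each group of 4 is 2 lines with 2 technical libraries, which the permutation treats as separate units, so its p says less than it would over independent samples. For the interval, the difference was -1.06 (9.74 ± 1.00 with the D2 allele against 10.8 ± 1.44, n = 4 each; exact permutation p = 0.286, adjusted 0.286). Without the loops of the Crxos anchor, an alternative chosen after seeing the data, the background difference was 0.21 (exact permutation p = 0.571, adjusted 0.571 over both factors). The interval difference was then -0.44 (exact permutation p = 0.2, adjusted 0.4). Leaving out 1 library moved the interval difference from -1.57 to -0.56.

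Outside the stretch, 1434 tested anchors had a mean of at least 20 CPM and line means at least 2-fold apart. Of these, 29 had a Pearson correlation over 0.9 with the Obox6 anchor over the 8 libraries, which form 4 lines of 2. The 5 most like it were chr4:48505001-48520000 (r = 0.969, no annotated start), chr9:115025001-115045000 in the body of Osbpl10 (0.965), chr11:59530001-59535000 (0.961, no start), chr4:48570001-48590000 with the start of Tmeff1 (0.960), and chr7:23465001-23475000 (0.960, no start). The nearest anchor of the Obox6 anchor itself, that of Crxos, had a correlation of 0.842. The first of these had 97.5 ± 4.99 CPM in D2-13B6 and 92.9 ± 6.79 in B6, against 57.8 ± 8.54 in D2 and 35.0 ± 3.71 in B6-13D2 (mean ± SD over 2 libraries). B6-13D2 was lowest, as in the Obox6 anchor, and D2-13B6, highest by its mean, overlapped B6.

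Related genes were mostly out of reach. Of 8 paired-like homeobox genes with a lysine at position 50 of the homeodomain, the group of Crx, only Otx2 had a start in an anchor, and it was not called in any contrast. Its sums were 30.5 and 42.0 CPM in B6, 60.1 and 40.4 in D2, 45.8 and 39.8 in B6-13D2, and 31.5 and 33.7 in D2-13B6. Of 25 genes of the first cleavages and the 2-cell-like state, 9 had a start in an anchor, and 5 of these anchors were tested. Of the 5, 1 was called for the background effect, against 24.8% of all anchors, and 1 for the interval effect in the D2 background, against 5.73%. Nelfa, a subunit of a pausing factor of RNA polymerase, had a background effect of 0.69 (SE 0.23, FDR 0.0176). Zfp296 had an interval effect in the D2 background of -0.51 (SE 0.14, FDR 0.0167). Dppa2, Dppa3 and Dppa4, which are expressed in stem cells and early embryos, were not called. The median interval and background effects of the 5 were -0.13 and 0.07, against 0.01 and 0.01 over all anchors.

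The cultures carried the contacts of stem cells. All 13 stem cell markers had a start in an anchor, with a sum of 5541 to 6420 CPM in B6, 6012 to 6213 in D2, 5426 to 6074 in B6-13D2 and 6413 to 6902 in D2-13B6. Some of their anchors differed between lines, while those of Nanog, Klf2, Zfp42, Tfcp2l1 and Prdm14 were called in no contrast. For the background effect 6 of 13 were called, against 24.8% of all anchors, with 5 higher in D2 (Sox2, Tdgf1, Esrrb, Tbx3 and Klf4, from 0.27 to 0.55 on the log2 scale) and Lin28a lower (-0.34, FDR 0.029). For the interval effect in the D2 background, Pou5f1 (-0.40, FDR 0.0162) and Sall4 (-0.44, FDR 0.00987) were called, and Sall4 also for the averaged interval effect (-0.25, FDR 0.0476). The effect differed between backgrounds at Pou5f1 (-0.59, FDR 0.0128) and Sox2 (-0.58, FDR 0.0274). Of the fibroblast markers, 2 of 10 had a start in an anchor, with sums of 44.5 to 45.6 CPM in D2 and 21.4 to 29.8 in the other lines, and Col1a1 and Col3a1 had none. Of the extraembryonic endoderm markers 1 of 6 did, Pdgfra (4.42 to 12.6 CPM), of the trophectoderm markers 0 of 6, and of the primed markers 1 of 8, Otx2. The part of the stem cell marker changes and of the higher fibroblast sum of D2 in the effects of the stretch was not tested. In D2-13B6, chromosome 11 held 13.9% and 14.0% of counts against 10.0% to 10.6% in the other libraries. Chromosome 7 held 6.79% to 7.37% of counts in every library.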

How the data were processed

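The deposited files held whole-number counts of read pairs per loop, not normalized, in a table of the series and in a file of 5-kb bin pairs for each library. Per the submitters' processing notes, BWA 0.7.18, SAMtools 1.19.2, edgeR 3.34.1 and the build mm10 were named. The loop caller and the handling of reads with several matches are not given in the sources used here, and reads lost at variants or copies could lower counts. Replicate libraries differed by slightly more than sampling noise in each line (chi-square over degrees of freedom 1.05 to 1.20). Each entered the tests as a sample of its own, although the 2 of a line are technical repeats. The spread used by the tests is thus that between technical libraries.

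The region, its genes and the lists were chosen with earlier results of these data known. Loops with at least 5 counts, or anchors and bins with at least 10, in at least 2 libraries were tested with edgeR 4.0.16 (quasi-likelihood, TMM factors, 1 mean per line, Benjamini-Hochberg over all features). CPM are counts per 1000000 of the library total, while fold changes also use the TMM factors, so both can differ in size. Over all anchors, the median difference of the interval effect between backgrounds was 0.02 with TMM factors and 0.29 with library totals alone. SE is the fold change over the square root of F. Words were matched on both strands of 65 records of GRCm38, with patches and alternates left out. Named were the 6 genes, called anchors and loops of the stretch by FDR, the partners with the most counts and the anchors most correlated. On simulated counts, of those changed by 1 on the log2 scale for the averaged interval effect, 80% were recovered over 21211 anchors, 69% over 42062 bins and 32% over 44706 loops. Genes are from GENCODE M21, and promoters from RefSeq GRCm38.p6.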

Additional observations from a re-analysis of the deposited data

Results flagged for a closer look

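At the anchor of the Sae1 and Zc3h4 starts (chr7:16385001-16420000), the interval effect differed between backgrounds by the interaction term, with a difference of -0.76 on the log2 scale (FDR 0.00157). In the loop inside that anchor the difference was -0.89 (FDR 0.00453). In 5-kb bins it was -1.22 at 16385001 (FDR 4.35e-04), -0.91 at 16395001 (FDR 0.017) and -0.88 at 16410001 (FDR 0.0493) of that anchor, and -0.96 at 16295001 in the Ccdc9 anchor (FDR 0.0218). Values in the Sae1 and Zc3h4 anchor rest on many of the same read pairs. Among the libraries, contacts inside the anchor had 148 ± 31.3 CPM in D2 and 220 ± 13.9 in D2-13B6, against 185 ± 1.15 in B6 and 219 ± 7.74 in B6-13D2 (mean ± SD over 2 libraries). No group of 4 or more replicate libraries existed for a test of outlying libraries.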

How the results depend on the processing

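The called anchors outside the Obox6 anchor numbered 1 (interval effect in the B6 background), 3 (in the D2 background), 3 (averaged), 5 (background effect) and 1 (interaction), the called loops 1, 2, 1 and 5 for the first 4 of these, and the called bins 8, 8, 8, 11 and 4 in the order of the anchors. The number of called anchors outside the Obox6 anchor kept within 1.5 times of its value under most alternatives. With DESeq2 it was 1 for the averaged interval effect and 2 for the background effect. For the interval effect in the B6 background it was 2 with library totals alone and with the minimum count doubled. For the interaction it was 2 with library totals alone and 0 without contacts inside anchors. Called loops fell with DESeq2 to 1 for the interval effect in the D2 background and 2 for the background effect. Without a filter on low counts they fell to 0, 0, 0 and 1 for the interval effect in the B6 background, in the D2 background, averaged, and the background effect. With the minimum count doubled, 2 loops were called for the averaged interval effect. Called bins were 4 (averaged interval) and 7 (background) with DESeq2, and 5 without contacts to the Obox6 anchor for the averaged interval effect and that in the B6 background. For the interval effect in the D2 background they were 4 with library totals alone and 5 with a scaling factor per chromosome, and for the interaction 1 with library totals alone. DESeq2 called 0 bins for the interval effect in the B6 background, in the D2 background and for the interaction, where edgeR called 8, 8 and 4, and 11, 9 and 5 had an unadjusted p under 0.05. Its filter gave an adjusted p to only 1, 9 and 1 of the 41 bins in these, and to 24 of 55 loops for the background effect. Without a filter on low counts more loops enter the fit and the adjustment. The cause of these changes was not tested. Leaving out 1 library moved the called loops from 0 to 1 (interval in the B6 background), from 0 to 3 (in the D2 background), and from 3 to 8 (background effect). It moved the called anchors from 1 to 2 (interval in the B6 background), from 2 to 3 (in the D2 background and averaged), and from 3 to 5 (background effect), and the called bins from 5 to 8 for the averaged interval effect, from 9 to 13 for the background effect, from 2 to 7 in the B6 background, from 2 to 9 in the D2 background and from 1 to 3 for the interaction. The difference in regional share kept its direction under the alternatives run, but its size moved. On the scale of 10000 counts it ran from 0.21 to 2.26 for the background and from -1.57 to -0.44 for the interval. Its adjusted p for the background could not pass the threshold in this design. With the replicate number as a block, 1 anchor was called for the interval effect in the B6 background, 3 in the D2 background and 3 averaged, 5 for the background effect and 1 for the interaction, and the count of called bins for the background effect moved from 11 to 10. The replicate numbers did not pair the libraries, since the correlation of replicate differences between lines ran from -0.16 to 0.03 over 21211 anchors, and in 0 of 4 lines did libraries deviate more with their own number. Few of the far partners of the Obox6 anchor reached the minimum count, and the part of depth in this was not tested.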
